A study of Mus musculus with 24 samples.

Results

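Cadherins are calcium-dependent adhesion proteins of the cell surface, and catenins are the cytoplasmic proteins that bind cadherin tails. The genes described here are 10 members of these families, chosen by symbol from 35695 genes in the deposited tables and present in each of the 3 tables. They are 7 cadherins (Cdh1, Cdh2, Cdh3, Cdh5, Cdh6, Cdh11 and Cdh13) and 3 catenins (Jup, Ctnnb1 and Ctnnd1). The series holds polyadenylated RNA of mOSE cells, a culture model of the mouse epithelium that covers the ovary, in 24 libraries that form 8 groups of 3. In the first experiment, cells of the line m1102 were spheroids after TGFB1, untreated spheroids, monolayers with TGFB1 and untreated monolayers. Spheroids are cell aggregates that form on ultra low attachment plates, and TGFB1 is the cytokine transforming growth factor beta 1, given at 10 ng/mL and, for spheroids, during the 4 days before low-attachment culture. In the second experiment, m1102 monolayers carried a lentiviral construct that overexpresses Snail, a transcriptional repressor encoded by Snai1, or the empty lentiviral vector WPI. In the third, monolayers of the line mOSE_BRCA1_fl, whose mice were BRCA fl/fl, received an adenovirus for Cre recombinase (BRCA1 ko) or for GFP (BRCA1 wt), so that both groups carry floxed alleles and an adenovirus. The labels name 1 line for each experiment and give neither the strain nor the age of the mice.

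At an adherens junction, the outer part of a classical cadherin binds a cadherin on the next cell, and its tail holds p120 catenin (Ctnnd1) and either beta-catenin (Ctnnb1) or plakoglobin (Jup). Beta-catenin in turn links to alpha-catenin and actin, and the pool that is not at junctions acts with TCF and LEF factors in WNT signalling. Ovarian surface epithelium is known for N-cadherin (Cdh2) at its contacts, with E-cadherin (Cdh1) scarce. In many epithelia, TGF-beta and Snail are known to lower E-cadherin and to raise mesenchymal cadherins.

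Levels are given in scaled TPM, the TPM measure of transcript abundance with a further factor per library, which is a level per transcript length and can be compared between genes. Columns of the first experiment summed to between 955433 and 1166749, those of the Snail experiment to between 983449 and 1021026 and those of the BRCA1 experiment to between 796668 and 1810667, and read depth is unknown. Pearson correlations of log2 levels between libraries of 1 group were 0.965 to 0.994, 0.988 to 0.992 and 0.866 to 0.985 in these 3 experiments. The BRCA1 wt replicate 2 had the lowest correlations in its group, with 0.917 to replicate 1 and 0.866 to replicate 3. Its column sum of 796668 was near those of the libraries labelled BRCA1 ko (819962 to 843146). Those of BRCA1 wt replicates 1 and 3 were 1217651 and 1810667. All monolayer libraries of the first experiment, and none of its spheroid libraries, are titled as re-analysed, and a difference of culture and one of library origin therefore cannot be told apart. The labels point to a single earlier sample for untreated monolayers 1 and 2, whose levels nonetheless differed (r = 0.9915), and both were kept. Snai1 had 233.6, 194.9 and 193.4 scaled TPM in Snail libraries, against 13.7, 10.1 and 9.81 in WPI libraries. Brca1 had 5.34, 11.1 and 4.09 scaled TPM in libraries labelled BRCA1 ko, against 4.27, 12.3 and 3.66 in BRCA1 wt libraries, so the gene total did not show the label, although the labels' protocol says that deletion was checked before RNA was taken. A total over transcripts need not show the loss of a floxed part. Of 10 ovarian surface epithelium markers, 8 to 10 reached a scaled TPM of 1 in every library outside the TGFB1 spheroids and 6 to 7 did in those.

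Of the 7 cadherins, 3 carried most of the signal in monolayers. P-cadherin (Cdh3, a classical cadherin of many epithelia) was the highest of them in untreated monolayers at 122 ± 9.07 scaled TPM (SD, n = 3), followed by Cdh2 at 46.9 ± 1.91 and Cdh11 at 34.4 ± 0.671. Cdh11, or OB-cadherin, is a mesenchymal cadherin found in fibroblasts and bone-forming cells. The 3 ranges did not overlap, so the order Cdh3, Cdh2, Cdh11 was the same in each untreated monolayer. In WPI monolayers of the same line, Cdh3 was again highest at 145 ± 14.01 scaled TPM, while Cdh2 (50.6 ± 2.48) and Cdh11 (47.2 ± 1.56) lay close together.

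The other 4 cadherins were near 0 in monolayers. E-cadherin (Cdh1) reached at most 0.102 scaled TPM in any of the 12 monolayer and spheroid libraries. In the Snail experiment it had 0.0427, 0 and 0.0843 scaled TPM in Snail libraries, against 0.0176, 0 and 0.0454 in WPI libraries, so the gene that Snail is best known to repress was at the bottom of the scale on both sides. Its highest values in the series were the 0.345, 0.270 and 0.387 scaled TPM of the libraries labelled BRCA1 ko, against 0.0349, 0.0787 and 0.0763 in BRCA1 wt libraries. Those groups did not overlap, but Cdh1 was below the minimum level for testing. Without that minimum the log2 difference was 0.33 ± 0.05 (SE; limma adjusted p = 0.0313) on the scale of log2(scaled TPM + 1), which understates changes of such low genes. The authors' deposited table gives Cdh1 a log2 coefficient of 1.985 and a q-value of 0.0605.

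Cdh6, known as K-cadherin of the kidney, was at most 0.0941 scaled TPM in any library of the series. Cdh13 (T-cadherin), which is held to the membrane by a lipid anchor and has no catenin-binding tail, was listed at 0 in all 6 monolayers of the first experiment. In TGFB1 spheroids it had 0.0345, 0.244 and 0.135 scaled TPM, against 0.0330, 0 and 0 in untreated spheroids. VE-cadherin (Cdh5), the junctional cadherin of blood vessel endothelium, was at most 0.438 scaled TPM in every monolayer library of the 3 experiments. Cdh5 was the only one of the 4 to pass a level of 1, and it did so in spheroids.

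**Figure D1:**
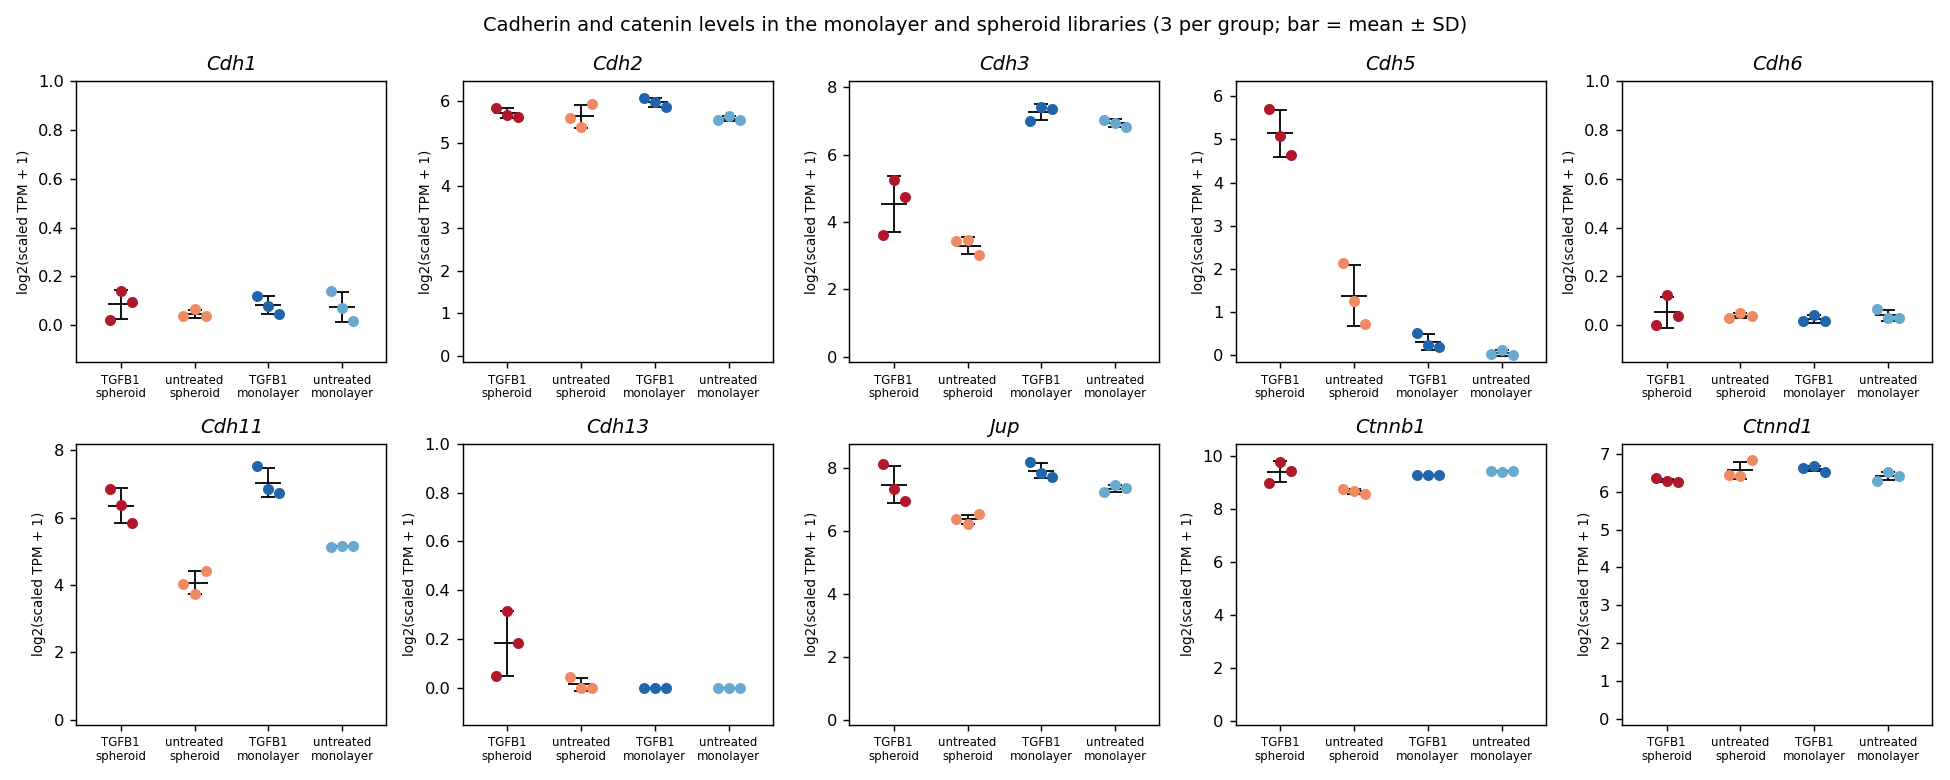
Levels of the 10 genes as log2(scaled TPM + 1) in the 12 monolayer and spheroid libraries. Points are libraries in replicate order, and the line and bars are the mean and SD of 3 libraries. Cdh3 sits lower in both spheroid groups than in both monolayer groups, Cdh5 is highest in TGFB1 spheroids, and Cdh11 is higher in each TGFB1 group than in the untreated group of the same culture.

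Of the catenins, Ctnnb1 and Jup stood above every cadherin in each untreated monolayer, and Ctnnd1 stood below Cdh3. Ctnnb1 was the highest member in every library of the series, at 684 ± 9.24 scaled TPM (SD, n = 3) in untreated monolayers and 599.9 ± 25.8 in WPI monolayers. Jup, a close relative of beta-catenin that also serves desmosomes, had 161 ± 11.04 and 147 ± 2.36 scaled TPM in these groups. Ctnnd1, which binds cadherins near the membrane and slows their removal from the surface, had 84.6 ± 6.85 and 84.97 ± 0.697.

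On the build GRCm38 (GENCODE M21), Cdh1, Cdh3, Cdh5, Cdh11 and Cdh13 lie on chromosome 8. Cdh3 (ENSMUSG00000061048; 106510891 to 106557297) ends 46053 bases before Cdh1 (ENSMUSG00000000303; 106603351 to 106670246) starts on the same strand. In untreated monolayers these genome neighbours were the highest cadherin and a cadherin near 0. Cdh5 (ENSMUSG00000031871) spans 104101625 to 104144511, and Cdh11 (ENSMUSG00000031673) spans 102632095 to 102785642 on the other strand. Jup (ENSMUSG00000001552) lies on chromosome 11 from 100368958 to 100397763, and Ctnnb1 (ENSMUSG00000006932) on chromosome 9 from 120929216 to 120960507. All 10 are annotated as protein-coding.

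Promoter windows of 250 bases before the RefSeq start (GRCm38.p6) were matched for 4 of the 10 genes, Jup, Ctnnb1, Ctnnd1 and Cdh6, with 6 windows in all. The windows below belong to the catenin that was called under Snail and to the beta-catenin gene, which was not, and neither overlaps a GENCODE exon. Capitals mark GTCTG, the reverse complement of CAGAC, a core motif bound by SMAD factors.
Jup, chr11:100397791-100398040, minus strand: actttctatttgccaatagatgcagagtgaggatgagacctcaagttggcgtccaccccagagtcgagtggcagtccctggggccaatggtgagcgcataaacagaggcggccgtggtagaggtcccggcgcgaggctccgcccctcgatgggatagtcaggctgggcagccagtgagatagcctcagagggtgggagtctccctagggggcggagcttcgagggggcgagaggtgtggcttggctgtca
Ctnnb1, chr9:120933150-120933399, plus strand: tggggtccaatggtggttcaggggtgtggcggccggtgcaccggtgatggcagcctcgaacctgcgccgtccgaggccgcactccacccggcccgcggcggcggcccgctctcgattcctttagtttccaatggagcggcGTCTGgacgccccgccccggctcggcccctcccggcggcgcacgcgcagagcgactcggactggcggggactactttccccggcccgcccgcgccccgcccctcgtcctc
CAGGTG, the E-box that Snail binds, was searched on both strands (CAGGTG or CACCTG) and stood in none of the 6 windows. It stood in 17.2% of all 32851 promoter windows of this length. CAGAC or GTCTG stood in 42.2% of all windows. Of the 6 windows it stood once in the Ctnnb1 window shown and 2 times in 1 of the 2 Ctnnd1 windows, and it was in none of the other 4. A match of letters is no binding site by itself, and its absence describes these 250 bases alone.

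In untreated spheroids, set against untreated monolayers, Cdh3, Cdh11, Jup and Ctnnb1 fell and Cdh5 rose, while Cdh2 and Ctnnd1 were not called. A gene was called at a limma adjusted p under 0.05, and 55.2% of all genes tested were called here, 27.6% higher and 27.7% lower. Of the 10 members 7 passed the minimum level of 1 in 3 libraries, 5 of these 7 were called, and Cdh5 passed through spheroid libraries alone. The median log2 fold change was -0.75 over the 7 and 0.01 over all genes tested.

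Cdh3 had the largest change on the scale of log2(scaled TPM + 1), on which Cdh5, near 0 in monolayers, is understated. Cdh3 had 9.77, 9.98 and 7.12 scaled TPM in untreated spheroids, against 131, 123 and 112 in untreated monolayers, with no overlap between the groups, as for 65.3% of all genes tested. Its log2 fold change was -3.64 ± 0.32 (SE), with a limma adjusted p of 5.38e-06. Cdh11 had 15.3, 12.4 and 20.4 scaled TPM in untreated spheroids, against 33.7, 35.0 and 34.5 in untreated monolayers. All 3 spheroids were lower, and the log2 fold change was -1.08 ± 0.27 (limma adjusted p = 0.00581). Cdh2 had 47.4, 41.0 and 59.6 scaled TPM in untreated spheroids, against 45.6, 49.1 and 46.1 in untreated monolayers. The spheroid values lay on both sides of the monolayer values, and the 95% interval of the log2 difference ran from -0.21 to 0.32. Of the summed cadherin signal, Cdh2 therefore made up 64.5% ± 2.95 (SD, n = 3) in untreated spheroids and 23.1% ± 1.20 in untreated monolayers, while Cdh3 made up 12.1% ± 3.70 and 59.9% ± 2.03. Such shares do not depend on the factor by which a library was scaled.

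Cdh5 had 3.44, 1.41 and 0.668 scaled TPM in untreated spheroids, against 0.0160, 0.0963 and 0.0144 in untreated monolayers. The log2 fold change was 1.33 ± 0.34 (limma adjusted p = 0.00614) on the scale of log2(scaled TPM + 1), which understates changes of low genes, and it was 3.54 with a pseudocount of 0.1. The log2 coefficient in the authors' deposited table is 4.94 for Cdh5. Beside it, the summed level of 10 other endothelial markers was 5.81 to 9.62 scaled TPM in untreated spheroids and 4.07 to 5.53 in untreated monolayers, and 1 of the 3 that could be tested rose. Of the catenins, Ctnnb1 had 428, 408 and 383 scaled TPM in untreated spheroids, against 688, 673 and 689.98 in untreated monolayers. Its log2 fold change was -0.75 ± 0.15 (limma adjusted p = 0.00169). Jup had 81.3, 74.0 and 90.7 scaled TPM in untreated spheroids, against 150.5, 173 and 161 in untreated monolayers. It fell by 0.97 ± 0.23 on the log2 scale (limma adjusted p = 0.00467), so both catenins that compete for the same cadherin site were lower in each spheroid. Ctnnd1 averaged 94.8 ± 15.4 scaled TPM in untreated spheroids and 84.6 ± 6.85 in untreated monolayers, and its log2 difference had an interval of -0.08 to 0.39. In these bulk libraries, fewer cells of a type and less RNA per cell cannot be told apart.

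Junction partners moved in both directions. Of 14 tested linkers among 18 other catenins and adherens junction genes, 2 rose and 7 fell. Plekha7, which ties p120 catenin to microtubules, averaged 4.41 scaled TPM in untreated spheroids and 33.9 in untreated monolayers (log2 fold change -2.70 ± 0.16, limma adjusted p = 2.97e-07). Ajuba, a LIM protein of junctions, averaged 6.504 and 44.1 scaled TPM (-2.59 ± 0.11, limma adjusted p = 3.74e-08), while Tjp1, the scaffold ZO-1, rose by 0.46 ± 0.07 (limma adjusted p = 0.000261). Of 8 listed repressors of cadherin genes 7 were tested and 6 rose, among them Zeb1 by 1.73 ± 0.12 (limma adjusted p = 9.31e-07), Snai1 by 1.22 ± 0.31 (0.0067) and Zeb2 by 1.13 ± 0.14 (5.27e-05). Of 7 tested beta-catenin target genes, 3 rose and 2 fell. Axin2, a feedback inhibitor of WNT signalling, averaged 7.28 scaled TPM in untreated spheroids and 51.7 in untreated monolayers, whereas Myc averaged 28.9 and 6.60. Of 9 tested ovarian surface epithelium markers, 8 fell and 1 rose, and their summed level was 267.9 to 442 scaled TPM in untreated spheroids and 1735 to 1863 in untreated monolayers. Of 7 tested stroma and fibroblast markers 4 fell and none rose, with a summed level of 378 to 585 scaled TPM in untreated spheroids and 2976 to 3483 in untreated monolayers. Of 6 granulosa and theca markers 2 were tested and both rose, and their list summed to 65.1 to 179 and 17.6 to 19.7 scaled TPM. Most of that was Cyp11a1, an enzyme of steroid synthesis, which averaged 113 scaled TPM in untreated spheroids and 0.297 in untreated monolayers. The part of these markers in the cadherin and catenin differences was not tested.

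**Figure D2:**
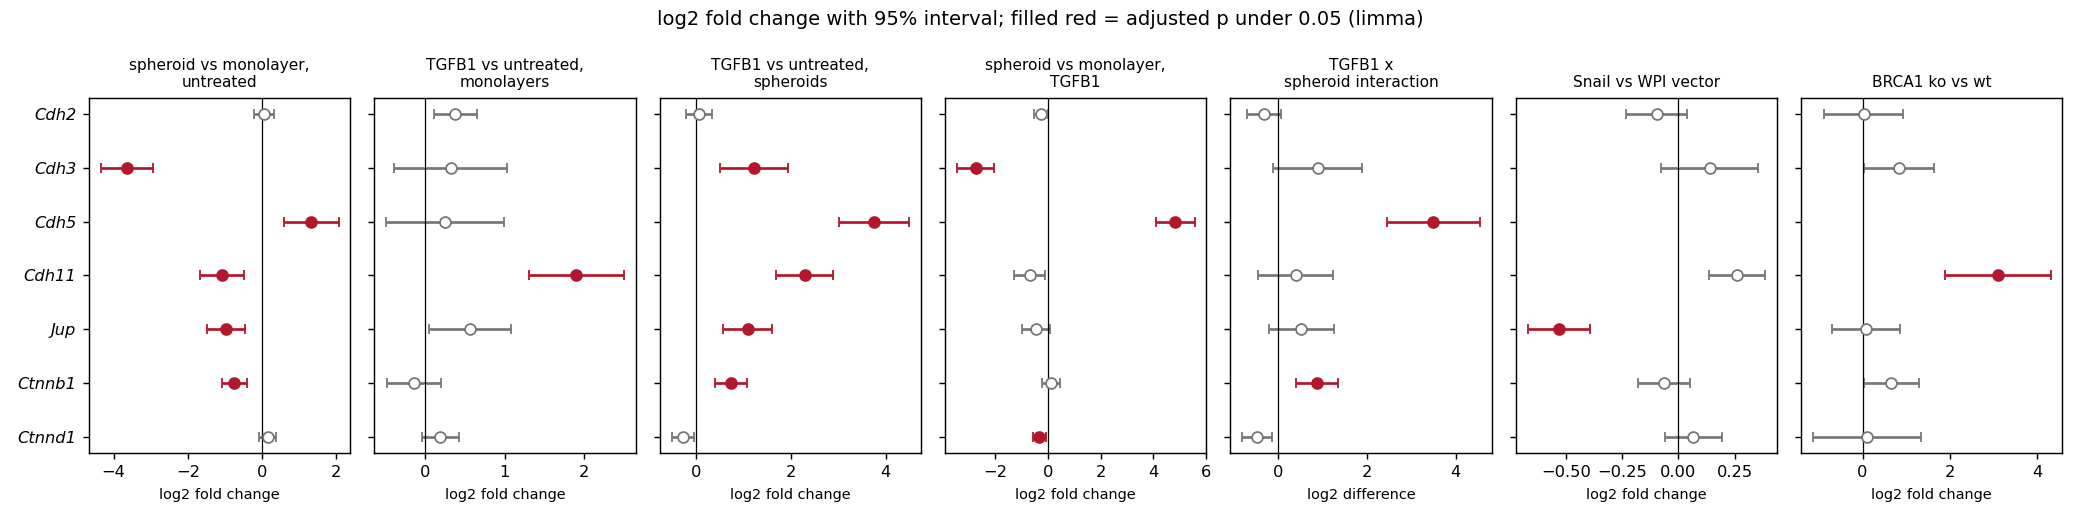
Log2 fold changes of the 7 members tested, with 95% intervals, in each comparison, where the interaction panel shows a difference of log2 fold changes. Filled red points have a limma adjusted p under 0.05. Horizontal scales differ between panels. Cdh5 has no point in the Snail and BRCA1 panels because it was below the minimum level there, and Cdh2 is open in every panel.

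TGFB1 in monolayers raised Cdh11, and no other member was called. Of the genes tested 16.9% were called, 9.12% higher and 7.79% lower, and of the 7 members tested 1 was, with a median log2 fold change of 0.33 over the 7 and 0.01 over all genes. Cdh11 had 186, 113 and 106 scaled TPM in TGFB1 monolayers, against 33.7, 35.0 and 34.5 in untreated monolayers. All TGFB1 libraries were higher, and the log2 fold change was 1.90 ± 0.27 (limma adjusted p = 0.00129). Cdh11 made up 38.1% ± 9.51 of the cadherin signal in TGFB1 monolayers and 16.9% ± 0.914 in untreated monolayers (SD, n = 3 each).

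Cdh2 came nearest to a call among the rest. It had 65.9, 61.9 and 57.3 scaled TPM in TGFB1 monolayers, against 45.6, 49.1 and 46.1 in untreated monolayers, and the groups did not overlap. Its log2 difference of 0.39 ± 0.12 had a limma adjusted p of 0.0522, and in a fit of these 6 libraries alone the adjusted p was 0.00893. Jup had 287, 227 and 210.1 scaled TPM in TGFB1 monolayers, against 150.5, 173 and 161 in untreated monolayers, again without overlap. Its log2 difference was 0.57 ± 0.23 (limma adjusted p = 0.127), and 0.0140 was the adjusted p in the 6 libraries alone. The fit of 6 libraries called 3771 genes over all genes, against 2284 in the fit of 12, so more calls were not particular to these members. Groups did not overlap for 47.5% of all genes tested. Cdh3 (154 ± 24.2 scaled TPM in TGFB1 monolayers and 122 ± 9.07 in untreated monolayers) and Ctnnb1 (623 ± 2.88 and 684 ± 9.24) had intervals of -0.38 to 1.03 and -0.47 to 0.20 for the log2 difference. Thus Cdh3, Ctnnb1, Ctnnd1 and Cdh5 gave no call at this precision, which does not show that they were alike.

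Around them, 2 of 7 tested repressors rose, Snai1 by 1.66 ± 0.31 (limma adjusted p = 0.00542) and Tcf3 by 0.54 ± 0.12 (0.0137). Of 14 tested linkers Ajuba rose by 0.68 ± 0.11 (limma adjusted p = 0.00265) and Ctnnal1, an alpha-catenin-like protein, fell by 0.93 ± 0.27 (0.0414). Pkp2, a desmosomal plaque protein, rose by 0.79 ± 0.15 (limma adjusted p = 0.00593). Mmp14, a membrane protease listed among those that cut cadherins or activate others, rose by 1.31 ± 0.17 (limma adjusted p = 0.000766). None of the 8 tested genes of the beta-catenin destruction complex was called by limma, and 1 had an unadjusted p under 0.05. Of 9 ovarian surface epithelium markers tested, 4 fell.

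TGFB1 before spheroid culture raised Cdh5, Cdh11, Cdh3, Jup and Ctnnb1 relative to untreated spheroids. Of the genes tested 35.6% were called, 18.8% higher and 16.8% lower, so that 52.9% of called genes were higher, and 29.8% were after the libraries were rescaled to equal sums. Of the 7 members tested 5 were called, and these 5 were also called higher after the rescaling, where Ctnnd1 was called lower. Cdh5 passed the minimum level through spheroid libraries alone, including all 3 TGFB1 spheroids, so the count is partly set by the filter. The median log2 fold change was 1.10 over the 7 tested and 0.003 over all genes, and the rescaling shifted the all-gene median to -0.16.

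The largest of these was Cdh5. It had 51.3, 32.8 and 23.9 scaled TPM in TGFB1 spheroids, against 3.44, 1.41 and 0.668 in untreated spheroids. The lowest TGFB1 library was well above the highest untreated one, and the log2 fold change was 3.76 ± 0.34 (limma adjusted p = 2.36e-05). Endothelial markers did not show such levels. The 10 listed markers other than Cdh5 together had 4.79 to 10.4 scaled TPM in TGFB1 spheroids, against 5.81 to 9.62 in untreated spheroids, and none of the 3 that could be tested was called by limma, with 0 at an unadjusted p under 0.05. Of the 10, 2 to 4 reached a scaled TPM of 1 in a TGFB1 spheroid library and 3 to 4 in an untreated spheroid library. Which cells held the Cdh5 RNA was not tested.

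**Figure D3:**
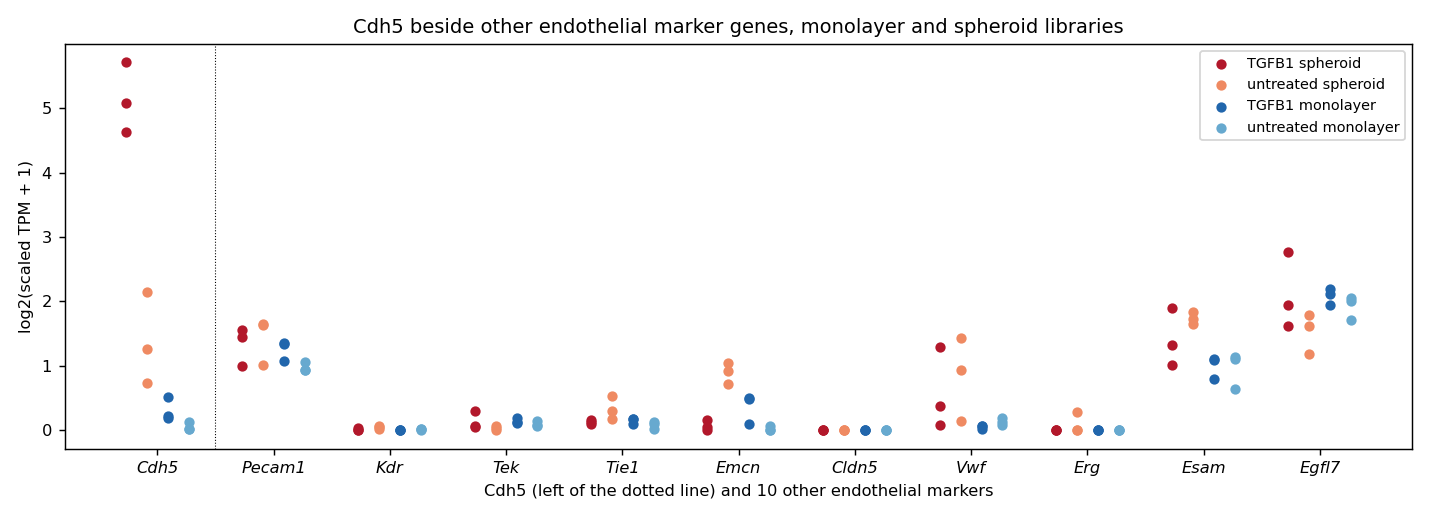
Levels of Cdh5 and of 10 other endothelial marker genes as log2(scaled TPM + 1) in the 12 monolayer and spheroid libraries. Each point is a library. Cdh5 is above 4 in the 3 TGFB1 spheroids, whereas none of the other markers is above 3 in any library.

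Cdh11 had 116, 82.9 and 55.8 scaled TPM in TGFB1 spheroids, against 15.3, 12.4 and 20.4 in untreated spheroids. It rose in each library, by 2.30 ± 0.27 on the log2 scale (limma adjusted p = 0.000157). Cdh3 had 11.3, 36.9 and 25.6 scaled TPM in TGFB1 spheroids, against 9.77, 9.98 and 7.12 in untreated spheroids. Replicate 1 lay just above the untreated values and the other 2 well above them, and the log2 fold change was 1.23 ± 0.32 (limma adjusted p = 0.0128). In a fit of these 6 libraries alone the adjusted p for Cdh3 was 0.0729, and 2787 genes were called over all genes, against 4810 in the main fit. Cdh2 averaged 51.4 ± 4.23 scaled TPM in TGFB1 spheroids and 49.3 ± 9.45 in untreated spheroids, with an interval of -0.20 to 0.34 for the log2 difference of 0.07, which was -0.11 after rescaling to equal sums.

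Among the catenins, Ctnnb1 had 511, 888 and 702 scaled TPM in TGFB1 spheroids, against 428, 408 and 383 in untreated spheroids. All TGFB1 libraries were higher, and the log2 fold change was 0.75 ± 0.15 (limma adjusted p = 0.00354). Jup had 275, 161 and 123 scaled TPM in TGFB1 spheroids, against 81.3, 74.0 and 90.7 in untreated spheroids, a log2 fold change of 1.10 ± 0.23 (limma adjusted p = 0.0045). The library with the lowest Ctnnb1, replicate 1, had the highest Jup, so the log2 ratio of Jup to Ctnnb1 was -0.89 there and -2.47 and -2.51 in replicates 2 and 3. Ctnnd1 had 80.8, 76.6 and 75.7 scaled TPM in TGFB1 spheroids, against 86.7, 85.1 and 113 in untreated spheroids. The groups did not overlap, as for 43.9% of all genes tested, and the log2 difference was -0.27 ± 0.11 (limma adjusted p = 0.0671). It was -0.46, with an adjusted p of 0.0103, after rescaling to equal sums.

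Of 15 further classical and related cadherins 4 were tested and 3 of these rose. Cdh22 passed the minimum level through the TGFB1 spheroids alone, as did the desmosome gene Pkp1, and Cdh10 through these and 1 TGFB1 monolayer, so the count is partly set by the filter. Cdh22 had 1.27, 16.8 and 8.65 scaled TPM in TGFB1 spheroids and at most 0.0752 in untreated spheroids, with a log2 fold change of 2.83 ± 0.55 (limma adjusted p = 0.00264). Cdh10 averaged 4.19 ± 2.96 scaled TPM in TGFB1 spheroids and 0.0780 ± 0.0727 in untreated spheroids (limma adjusted p = 0.00187). Pkp1, a desmosomal plaque protein of stratified epithelia, had 41.6, 12.8 and 9.99 scaled TPM in TGFB1 spheroids and at most 0.0445 in untreated spheroids, a log2 fold change of 4.16 ± 0.38 (limma adjusted p = 2.92e-05). Of the 7 tested repressors, Snai1 rose by 3.09 ± 0.31 (limma adjusted p = 5.6e-05), while Zeb1 and Tcf4 fell by 0.34 ± 0.12 (0.0426) and 0.34 ± 0.11 (0.0361). Of 7 tested beta-catenin target genes 2 rose and 1 fell. The risers encode the partner factors Tcf7 (3.91 scaled TPM in TGFB1 spheroids and 0.464 in untreated spheroids) and Lef1 (4.71 and 0.913). Of 9 ovarian surface epithelium markers 8 fell, and of 7 stroma and fibroblast markers 4 rose. The summed level of those 8 listed stroma markers was 648 to 1464 scaled TPM in TGFB1 spheroids and 378 to 585 in untreated spheroids, and the part of these markers in the member differences was not tested.

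Between the cultures under TGFB1, Cdh5 was higher in spheroids, and Cdh3 and Ctnnd1 were lower. This comparison shares libraries with those above. Of the genes tested 51.9% were called, 25.3% higher and 26.5% lower, and 3 of the 7 members were. Of these 3, Cdh5 passed the minimum level through spheroid libraries alone. Groups did not overlap for 59.4% of all genes tested. Higher genes made up 48.9% of the calls, and 33.1% after rescaling to equal sums. Cdh5 had 51.3, 32.8 and 23.9 scaled TPM in TGFB1 spheroids, against 0.438, 0.173 and 0.146 in TGFB1 monolayers (log2 fold change 4.82 ± 0.34, limma adjusted p = 8.18e-07). Cdh3 had 11.3, 36.9 and 25.6 scaled TPM in TGFB1 spheroids, against 126, 171 and 165 in TGFB1 monolayers. It was lower in every spheroid, by a log2 fold change of -2.73 ± 0.32 (limma adjusted p = 4.04e-05). Ctnnd1 had 80.8, 76.6 and 75.7 scaled TPM in TGFB1 spheroids, against 98.4, 100.7 and 91.6 in TGFB1 monolayers. Its log2 fold change of -0.31 ± 0.11 (limma adjusted p = 0.028) lost its call when TGFB1 monolayer 1 or 2 or TGFB1 spheroid 2 or 3 was left out (adjusted p 0.0669, 0.0868, 0.0674 and 0.0727). Beside these, 6 of 9 ovarian surface epithelium markers fell, and their summed level was 229.9 to 428 scaled TPM in TGFB1 spheroids and 897 to 1224 in TGFB1 monolayers. Of 7 stroma and fibroblast markers 3 fell and 1 rose, with sums of 648 to 1464 and 2586 to 3157 scaled TPM. Of 8 leukocyte markers only Cd68 could be tested, and it rose (42.0 and 8.61 scaled TPM). The leukocyte list summed to 12.1 to 63.7 scaled TPM in TGFB1 spheroids and 8.22 to 10.9 in TGFB1 monolayers. Of 6 granulosa and theca markers 2 were tested, and 1 was called, Foxl2, which rose (30.8 and 22.2). The part of these markers in the member differences was not tested.

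For Cdh11 the TGFB1 spheroids (84.8 ± 30.0 scaled TPM) and TGFB1 monolayers (135 ± 43.8) overlapped, with a log2 difference of -0.68 ± 0.27 (limma adjusted p = 0.0549). For Ctnnb1 the difference was 0.13 ± 0.15 and turned to -0.04 after rescaling to equal sums. Without TGFB1 spheroid 1, Ctnnb1 (0.34 ± 0.09, limma adjusted p = 0.0127), Cdh11 (-0.93 ± 0.26, 0.0135) and Jup (-0.76 ± 0.15, 0.00224) were called as well. The cadherin signal of TGFB1 spheroids was made up of Cdh11 at 42.2% ± 6.62, Cdh2 at 26.6% ± 4.20, Cdh5 at 17.8% ± 3.49 and Cdh3 at 13.2% ± 7.33 (SD, n = 3). In TGFB1 monolayers it was made up of Cdh3 at 44.3% ± 9.43, Cdh11 at 38.1% ± 9.51 and Cdh2 at 17.6% ± 0.248. Their summed cadherin level was 197 ± 40.6 scaled TPM in TGFB1 spheroids, 76.2 ± 11.5 in untreated spheroids, 351 ± 25.2 in TGFB1 monolayers and 203 ± 9.03 in untreated monolayers.

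**Figure D4:**
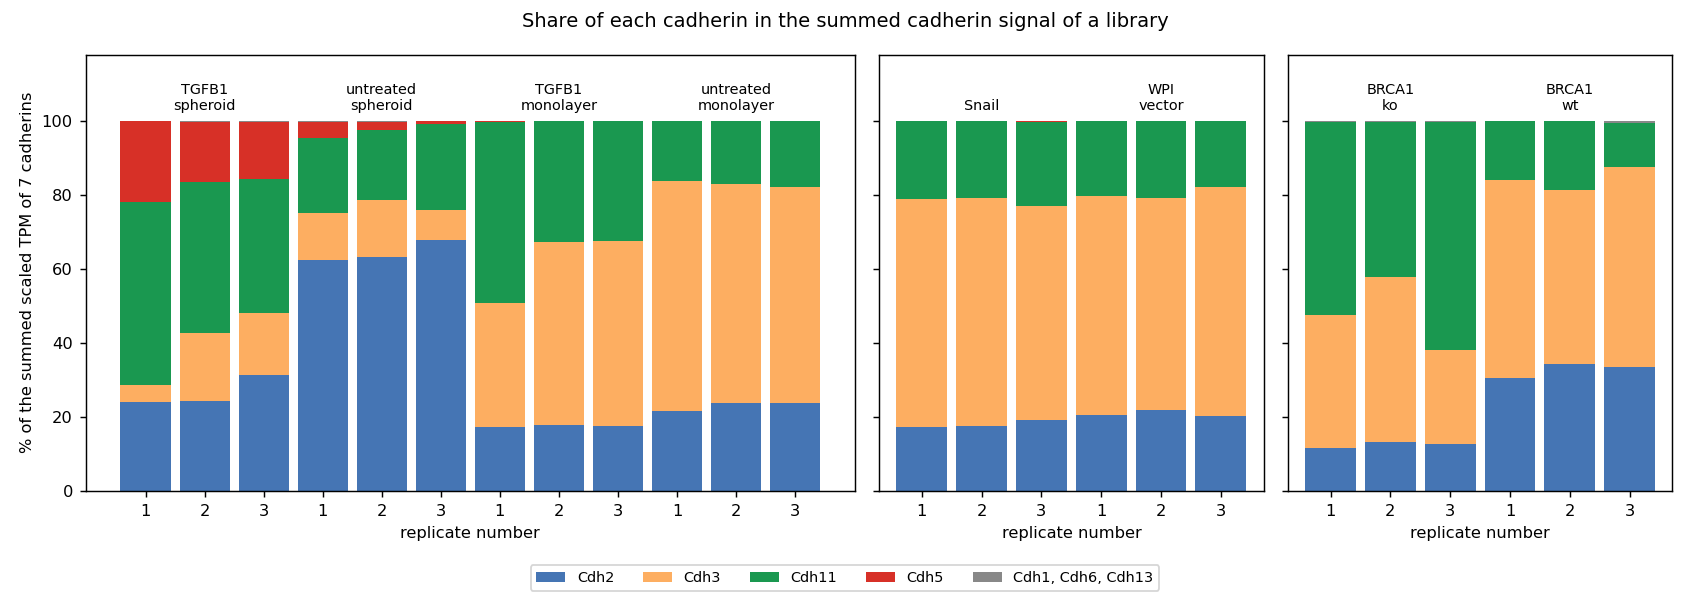
Share of each cadherin in the summed scaled TPM of the 7 cadherins, in percent, for each of the 24 libraries. Cdh2 is the largest part in the 3 untreated spheroids and Cdh11 in the 3 TGFB1 spheroids, and Cdh11 takes 41.9% to 61.8% in the libraries labelled BRCA1 ko, against 12.1% to 18.7% in BRCA1 wt.

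The TGFB1 effect differed between spheroids and monolayers for Cdh5 and Ctnnb1. The interaction, the effect in spheroids minus that in monolayers, was called for 15.8% of genes, 8.72% higher and 7.11% lower, and for 2 of the 7 members. Cdh5 passed the minimum level through spheroid libraries alone. With a level of 1 required in 6 libraries Cdh5 was not tested, and 1 member was called. Called interactions were higher for 55.1%, and for 27.6% after rescaling to equal sums, which moved the all-gene median to -0.21. For Cdh5 the TGFB1 log2 fold change was 3.76 ± 0.34 in spheroids and 0.26 ± 0.34 in monolayers, a difference of 3.50 ± 0.48 (limma adjusted p = 0.000976). The monolayer levels of Cdh5 lie below the pseudocount of 1, although TGFB1 and untreated monolayers did not overlap. With a pseudocount of 0.1 the log2 difference for TGFB1 was 1.26 in monolayers (limma adjusted p = 0.140) and 4.42 in spheroids, and the interaction was 3.16 (0.0206). In the authors' deposited table the log2 coefficients of Cdh5 are 2.40 for TGFB1 in monolayers and 2.17 for the interaction. For Ctnnb1 it was 0.75 ± 0.15 in spheroids and -0.14 ± 0.15 in monolayers, a difference of 0.88 ± 0.22 (limma adjusted p = 0.0193). For Cdh11, which TGFB1 raised in both cultures, the difference of 0.40 had an interval of -0.44 to 1.24. For Ctnnd1 the difference was -0.47 ± 0.15 (limma adjusted p = 0.0572) and -0.69 after rescaling to equal sums, where the adjusted p was 0.0153. For Cdh3 it was 0.90 ± 0.45 (limma adjusted p = 0.208), and 1.36 ± 0.25 without TGFB1 spheroid 1 (0.00683). Of the listed neighbours, Pkp1 (4.09 ± 0.54, limma adjusted p = 0.000875), Cdh22 (2.81 ± 0.77, 0.0327) and Lef1 (1.12 ± 0.26, 0.0159) had a larger TGFB1 effect in spheroids. Tjp1 (-0.53 ± 0.10, limma adjusted p = 0.00563) and Myc (-2.14 ± 0.57, 0.0276) had a more negative one. Pkp1 and Cdh22 passed the minimum level through the TGFB1 spheroids alone, so their calls are partly set by the filter. Of 7 tested stroma and fibroblast markers, the interaction was called higher for 3 and lower for 1, and their part in the member differences was not tested.

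Genes whose levels ran most like those of a member over the 12 libraries differed from member to member. By Pearson correlation of log2 levels, Emc8, Hal and Ncaph were nearest to Cdh3 (0.996 to 0.989), and Slc20a1, Chrnb2 and Gprin3 were nearest to Cdh5 (0.993 to 0.989). Endod1, Shisa4 and Fzd6, the last a WNT receptor gene, were nearest to Cdh11 (0.982 each). For Jup the nearest gene was Pcdhga1 (0.980), for Ctnnb1 Mocs2 (0.960), for Cdh2 Tex261 (0.948) and for Ctnnd1 Spata13 (0.926). The 12 libraries form 4 groups, so these values mostly describe shared group means.

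Under Snail, Jup fell and no other member was called. Of the genes tested 1.72% were called, 0.572% higher and 1.14% lower, and of the 6 members tested 1 was. The median log2 fold change was 0.001 over the 6 and 0.01 over all genes. Jup had 109, 99.7 and 95.9 scaled TPM in Snail libraries, against 149.8, 145 and 146 in WPI libraries. The groups did not overlap, and the log2 fold change was -0.53 ± 0.06 (limma adjusted p = 0.00981). Without Snail replicate 2 the log2 fold change was -0.52 and its adjusted p 0.0608. The authors' deposited table gives Jup a log2 coefficient of -0.531 and a q-value of 3.97e-10.

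Cdh11 had 58.2, 56.1 and 55.8 scaled TPM in Snail libraries, against 46.5, 49.0 and 46.1 in WPI libraries. All Snail libraries were higher, as groups were apart for 20.6% of all genes tested, but the log2 difference of 0.26 ± 0.05 was not called (limma adjusted p = 0.068). In the authors' deposited table the q-value of Cdh11 is 0.00499. Cdh2 had 47.7, 46.9 and 47.0 scaled TPM in Snail libraries, against 47.8, 51.8 and 52.3 in WPI libraries, with an interval of -0.23 to 0.04 for the log2 difference. Cdh3 (159 ± 15.3 scaled TPM in Snail and 145 ± 14.01 in WPI), Ctnnb1 (573 ± 5.80 and 599.9 ± 25.8) and Ctnnd1 (89.1 ± 4.50 and 84.97 ± 0.697) gave intervals of -0.08 to 0.35, -0.18 to 0.05 and -0.06 to 0.19. A change as large as that of Jup lies outside each of these intervals.

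**Figure D5:**
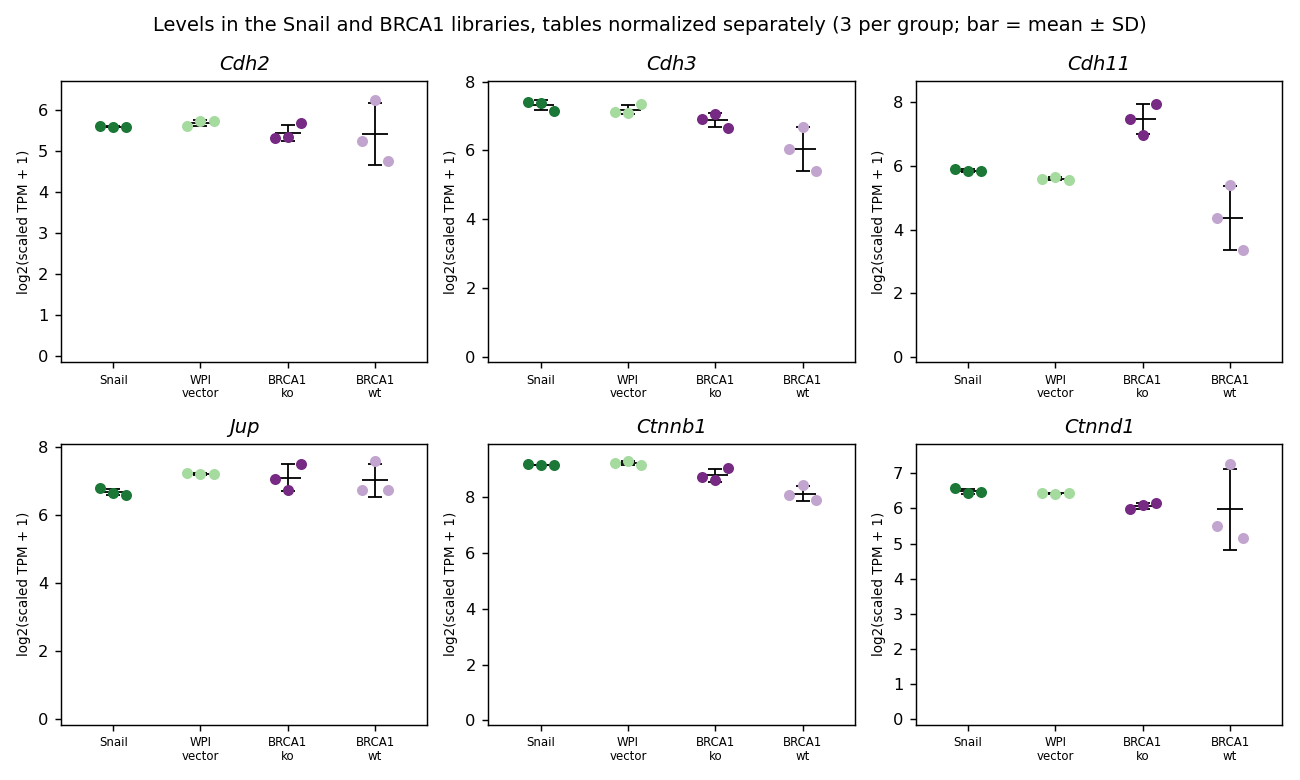
Levels of the 6 members that passed the minimum level in the Snail and BRCA1 tables, as log2(scaled TPM + 1). The tables were normalized separately, points are libraries, and the line and bars are the mean and SD of 3. Jup is lower in the 3 Snail libraries than in the 3 WPI libraries, and Cdh11 is higher in the 3 libraries labelled BRCA1 ko than in the 3 BRCA1 wt libraries.

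Few calls could fall in the junction lists, given the 1.72% of all genes called under Snail. None of 14 tested linkers, 8 genes of the destruction complex, 6 beta-catenin targets, 8 proteases, 8 protocadherins and giant cadherins, or the 1 desmosome gene tested was called by limma at the adjusted threshold. At an unadjusted p under 0.05 there were 5 linkers, 0 destruction complex genes, 2 targets, 2 proteases, 2 protocadherins and giant cadherins and the 1 desmosome gene. The share of all genes under that unadjusted limit is not given here, so these counts are no result about the lists. Of 10 endothelial markers only Egfl7 could be tested, and it rose by 1.16 ± 0.13 (limma adjusted p = 0.0102). Of 7 tested repressors only Snai1 was called (log2 fold change 4.10 ± 0.13, limma adjusted p = 2.54e-05), and it is the gene on the construct. Among 9 ovarian surface epithelium markers, Msln (mesothelin) and Krt18 (a simple-epithelium keratin) fell by 0.68 ± 0.06 and 0.57 ± 0.09, and Upk3b, a mesothelial marker, rose by 0.61 ± 0.11 (limma adjusted p 0.00659, 0.0340 and 0.0456).

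In the libraries labelled BRCA1 ko, Cdh11 rose and no other member was called. Of the genes tested 14.3% were called, 9.04% higher and 5.27% lower, and of the 6 members tested 1 was. The median log2 fold change was 0.38 over the 6 and 0.17 over all genes, and the all-gene median moved to 0.63 after rescaling to equal sums and to 0.05 with a median of ratios. Higher genes made up 63.2% of the calls and 80.3% after rescaling to equal sums. Cdh11 had 176, 125 and 243 scaled TPM in libraries labelled BRCA1 ko, against 19.3, 40.7 and 9.31 in BRCA1 wt libraries. The lowest ko value was above the highest wt value, and the log2 fold change was 3.09 ± 0.51 (limma adjusted p = 0.0131). The call was lost without ko replicate 1 (adjusted p = 0.0899), ko 2 (0.0549), ko 3 (0.0883) or wt 1 (0.0766), with log2 fold changes of 2.86 to 3.33 in these 4 fits. The authors' deposited table gives Cdh11 a log2 coefficient of 2.84 and a q-value of 2.21e-05.

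As a share of the cadherin signal, which the factor per library cannot change, Cdh11 made up 52.0% ± 9.94 (SD, n = 3) in libraries labelled BRCA1 ko and 15.5% ± 3.31 in BRCA1 wt libraries. Cdh2 made up 12.5% ± 0.850 and 32.8% ± 2.07, and Cdh3 35.3% ± 9.66 and 51.5% ± 3.95. The ranges of the shares of these 3 cadherins did not overlap between the groups. Shares of one sum depend on each other, so a higher Cdh11 by itself lowers the shares of Cdh2 and Cdh3. The 3 separations are therefore not separate results. As levels, the log2 differences were 0.03 ± 0.39 for Cdh2 and 0.83 ± 0.34 for Cdh3, and neither was called. Against Cdh2, Cdh11 stood 2.04 ± 0.33 higher on the log2 scale in libraries labelled BRCA1 ko and at -1.10 ± 0.33 in BRCA1 wt libraries.

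The BRCA1 wt group varied widely, which limits the other members. Ctnnb1 had 424, 389.7 and 529 scaled TPM in libraries labelled BRCA1 ko, against 268, 345 and 240.1 in BRCA1 wt libraries. The groups did not overlap, as for 44.9% of all genes, and the log2 difference was 0.66 ± 0.27 (limma adjusted p = 0.110). Cdh3 had 120.4, 133 and 99.8 scaled TPM in libraries labelled BRCA1 ko, against 65.0, 102 and 41.6 in BRCA1 wt libraries, with a log2 difference of 0.83 ± 0.34 (limma adjusted p = 0.113). Ctnnd1 had 62.0, 67.05 and 69.5 scaled TPM in libraries labelled BRCA1 ko, against 44.0, 154 and 34.3 in BRCA1 wt libraries, where replicate 2 was the high one. BRCA1 wt replicate 2 had the lowest correlations in its group, whereas replicates 1 and 3 had the highest column sums. Without BRCA1 wt replicate 2, Ctnnb1 (0.81 ± 0.20, limma adjusted p = 0.00885), Cdh3 (1.15 ± 0.23, 0.0039) and Ctnnd1 (0.75 ± 0.17, 0.00649) were called beside Cdh11. In that fit 8295 genes were called over all genes, against 1828 with every library, so the added calls were not particular to these members. Without BRCA1 wt replicate 3, the log2 difference of Ctnnd1 was -0.31 ± 0.50 (limma adjusted p = 0.671). Jup and Cdh2 had log2 differences of 0.08 ± 0.33 and 0.03 ± 0.39, and with a median of ratios -0.05 and -0.11.

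Several partners were called beside Cdh11. Of 15 tested linkers, Pkp4, Ctnna2 and Ctnnal1 rose by 1.60 ± 0.25, 1.58 ± 0.26 and 1.55 ± 0.31, and Arvcf, a relative of p120 catenin, fell by 1.47 ± 0.22 (limma adjusted p 0.0103, 0.0120, 0.0247 and 0.00992). Of 7 tested repressors, Snai2 (Slug) rose by 2.01 ± 0.26 and Tcf4 by 1.67 ± 0.31, while Twist1 and Tcf3 fell by 2.66 ± 0.26 and 0.86 ± 0.23 (limma adjusted p 0.00551, 0.0190, 0.00269 and 0.0491). Twist1 averaged 0.0800 scaled TPM in libraries labelled BRCA1 ko and 6.03 in BRCA1 wt libraries. Of 9 tested beta-catenin target genes 2 rose and 2 fell. Axin2 averaged 83.5 scaled TPM in libraries labelled BRCA1 ko and 27.9 in BRCA1 wt libraries, and Apcdd1, an inhibitor of WNT signalling, averaged 3.68 and 19.3. Of the 10 ovarian surface epithelium markers, 2 rose and 2 fell, and their summed level was 2892 to 3039 scaled TPM in libraries labelled BRCA1 ko and 2756 to 2986 in BRCA1 wt libraries. The summed level of 8 stroma and fibroblast markers was 904 to 1271 and 1568 to 1750 scaled TPM in these groups, and its part in the Cdh11 difference was not tested.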

How the data were processed

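Levels were taken from 3 gene tables that the authors deposited, whose values are a normalised signal that the file headers call scaled TPM. Per the submitters' processing notes, kallisto 0.44.0, sleuth 0.30.0 and the build GRCm38 were used. The columns of the deposited tables do not share a common sum, and the tables were normalised separately, so tests stayed within a table. The deposited tables of comparisons hold p-values, q-values and natural log coefficients from the authors, and each coefficient was put on the log2 scale by dividing it by the natural log of 2. Read depth is not given in the sources used here, so no counting error can be given.

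Log2(scaled TPM + 1) was fitted with limma 3.58.1 in R 4.3.3, with a mean per group and a variance trend, for genes at 1 or more in at least 3 libraries of a table (13509, 12240 and 12775 genes). Tests were two-sided, with Benjamini-Hochberg adjustment over all genes tested. The script was tested on simulated data. The labels do not say that replicates are separate cultures, so a p-value speaks of the spread among these libraries alone, which may be technical. Members and gene lists were chosen with earlier results of these data known. Named genes are all 10 members, up to 3 called genes with the largest rise and 3 with the largest fall per list and comparison, Snai1, Brca1 and Tgfb1 as checks of the labels, and the 3 genes most correlated with each member; the text prints some of these. Tgfb1 averaged 797 scaled TPM in TGFB1 spheroids and 99.8 in untreated spheroids. Summed leukocyte markers were 12.1 to 63.7 scaled TPM in TGFB1 spheroids and 14.9 to 67.1 in untreated spheroids, and granulosa and theca markers were 33.8 to 68.1 and 65.1 to 179. Gene IDs matched GENCODE M21 for 98.13% to 98.16% of rows.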

Additional observations from a re-analysis of the deposited data

Results flagged for a closer look

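The effect of TGFB1 differed between the cultures for 2 of the 7 members tested by a test of the difference itself. This test called 15.8% of all genes tested. For Cdh5, the VE-cadherin gene, the effect in spheroids minus that in monolayers was 3.50 ± 0.48 on the log2 scale (SE; limma adjusted p = 0.000976). The level was higher in 3 of 3 TGFB1 spheroids than in any untreated spheroid, and these groups did not overlap for 43.9% of all genes tested. Cdh5 passed the minimum level through spheroid libraries alone, and with a level of 1 required in 6 libraries it was not tested. With a pseudocount of 0.1 in place of 1 the difference was 3.16 (limma adjusted p = 0.0206), and the log2 interaction coefficient in the authors' deposited table is 2.17. Monolayer levels of Cdh5 lay below the pseudocount of 1 and did not overlap between TGFB1 (0.146 to 0.438 scaled TPM) and untreated monolayers (0.0144 to 0.0963), so the size of the difference depends on the pseudocount. For Ctnnb1, the beta-catenin gene, the difference was 0.88 ± 0.22 (limma adjusted p = 0.0193), with all TGFB1 spheroids above the untreated spheroids and all TGFB1 monolayers below the untreated monolayers. The 2 monolayer groups did not overlap for 47.5% of all genes tested. Since all monolayer libraries and no spheroid libraries are titled as re-analysed, culture and origin cannot be told apart in either value.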

How the results depend on the processing

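Among single-gene values, 414 of 444 under another setting and 457 of 492 with a library left out kept their direction and their side of the threshold. Requiring a level of 1 in 6 libraries called 2 members for TGFB1 in monolayers and 1 for the interaction, since Cdh5 was then not tested. Rescaling to equal sums called 5 members between cultures under TGFB1, and over all genes it called 2423 higher and 4898 lower there. Library quality weights, whose estimate did not fully converge, called 5 for TGFB1 in monolayers, 6 between cultures under TGFB1, 4 for the interaction, 2 under Snail and 5 under BRCA1 ko. Over all genes, the weights called 6431 of 13509 for TGFB1 in monolayers, 4385 of 13509 for the interaction and 11536 of 12775 for BRCA1 ko. Between cultures under TGFB1, 7009 genes were called in the main fit and 6124 to 7713 under the other settings. A fit of the 6 libraries of the 2 groups alone called 3 for TGFB1 in monolayers. Leaving out each library in turn gave 1 to 3 members for TGFB1 in monolayers, 2 to 6 between cultures under TGFB1, 0 to 1 for Snail and 0 to 4 for BRCA1. Over all genes, these fits called 1220 to 2824, 6019 to 7509, 23 to 74 and 57 to 8295 in the same order. The cause of these changes was not tested.

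Same-numbered libraries correlated at -0.320 to 0.186 in their deviations from the group means in the first experiment, at -0.0783 to 0.331 with Snail and at -0.167 to -0.0534 with BRCA1. With 3 libraries per group, these values cannot decide whether the numbers pair the samples. With the replicate block 0 members were called by limma for Snail (Jup adjusted p = 0.0534) and 0 for BRCA1 (Cdh11 adjusted p = 0.0616), and the block changed no member count in the first table.

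The values whose direction turned under these settings had not been called. Rescaling to equal sums gave Cdh2 -0.11 for TGFB1 in spheroids and Ctnnb1 -0.043 between cultures under TGFB1, and quality weights gave Cdh2 -0.062 for untreated spheroids. Median of ratios gave Jup -0.055, Ctnnd1 -0.036 and Cdh2 -0.11 for BRCA1. With a library left out, Cdh2 was -0.051 to 0.21 for TGFB1 in spheroids and -0.088 to 0.18 for untreated spheroids, and Ctnnb1 was -0.055 to 0.34 between cultures under TGFB1. For BRCA1 the ranges were -0.13 to 0.37 for Jup, -0.30 to 0.44 for Cdh2 and -0.31 to 0.75 for Ctnnd1, lower than 0 without ko 3 (Jup and Cdh2), wt 1 or wt 3.

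Over all genes, calls for TGFB1 in monolayers were 2284, and 6431 with weights, 3771 in 6 libraries and at least 1220 with a library left out. Interaction calls were 2138, and 4385 with weights and at least 1307 with a library left out. For TGFB1 in spheroids they were 4810, and 2787 in 6 libraries and 3095 without TGFB1 spheroid 2. For Snail they were 210, and 54 with no minimum level, 16 with the block and 23 to 74 with a library left out. For BRCA1 they were 1828, and 1091 with no minimum level, 797 with the stricter one, 878 after equal sums, 11536 with weights, 433 with the block and 57 to 8295 with a library left out.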
